A study of Mus musculus with 6 samples.

Results

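The suppressors of cytokine signalling (SOCS) and the PIM kinases were followed in mouse T cells that had shared a culture with ID8 cells, an ovarian cancer line of C57BL/6 mice. The genes were chosen by name: Cish, Socs1 to Socs7, Pim1 and Pim2, which are 10 of the 54532 genes in the deposited expression table. All 10 were found once each, and all 10 were among the 15874 genes kept by the filter on low values (0.5 FPKM or more on average over all 6 libraries). FPKM is a level in fragments that is already divided by gene length and by a total for the library.

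Bulk RNA was sequenced from 6 T-cell libraries. T cells from the spleens of young adult C57BL/6 mice were purified with a pan T-cell isolation kit, held in IL-2 medium and pre-activated with anti-CD3/28 beads, and this was shared by all libraries. In 3 libraries (cisplatin 1 to 3) the T cells met ID8 cells that had been pretreated with 40 µM cisplatin, a platinum drug that crosslinks DNA. In the other 3 (control 1 to 3, titled WT) the ID8 cells had received PBS. The labels do not say whether the 3 libraries of a group came from separate mice or cultures, so the p-values measure the spread between these libraries, which may be technical.

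SOCS proteins are brakes that cytokines switch on against themselves. A cytokine receptor activates JAK kinases, these phosphorylate STAT transcription factors, and the STATs induce SOCS genes. The SOCS protein binds the receptor or the JAK through an SH2 domain, and its SOCS box recruits elongin B, elongin C, cullin 5 and Rnf7 to tag the bound protein for degradation. PIM kinases are also cytokine-induced in T cells. They are serine/threonine kinases that are active as soon as they are made, so their amount follows transcription and turnover, and they favour growth and survival.

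The libraries were of even depth, with 30606569 to 31255205 rebuilt reads on genes in control and 30847321 to 32169496 in cisplatin. The total by which FPKM was divided averaged 0.98 times these reads in control and 1.04 times in cisplatin. Rescaling by the rebuilt reads moved the median log2 fold change of all tested genes from 0.03 to 0.11. Of 26 T-cell identity genes, 25 had the higher mean in cisplatin, and their summed level ran from 2080 to 2207 FPKM in control and from 3271 to 3345 FPKM in cisplatin. These markers were present in every library, but so were markers of other cells, and the B-cell list summed to more than the T-cell list in all 6 libraries. The 24 genes of the ID8 tumour cell list summed to 1816 to 1903 FPKM in control and to 280 to 291 FPKM in cisplatin, and all 21 of them that could be tested were lower by at least 2-fold. B-cell genes (10) summed to 3109 to 3333 FPKM in control and to 6833 to 6891 FPKM in cisplatin, with Ighm, the immunoglobulin heavy chain gene, at a mean of 1433 and 3220.5 FPKM. Sums in control and cisplatin were, for myeloid genes (15), 93.5 to 97.7 and 177 to 200.1 FPKM, and for NK-cell genes (5), 8.36 to 8.93 and 9.71 to 11.6 FPKM. No marker of any of these lists was below 0.1 FPKM in all libraries. In such bulk RNA, fewer cells of a type and less RNA per cell cannot be told apart, and the part of the changing cell makeup in the values given here was not tested. For this reason changes are given on the deposited scale and again after centring. In centring, the mean log2 level of the T-cell identity genes was set equal in all libraries. This moved the median log2 fold change of all tested genes from 0.03 to -0.51. After centring the list medians were 0.17 for B-cell, 0.44 for myeloid, -0.14 for NK-cell and -2.875 for ID8 genes. Centring thus did not even out these other cells.

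Short motifs were read from the promoter windows of RefSeq (GRCm38.p6, 250 bases before to 50 after a transcription start), since Cish, Socs1, Socs2, Socs3 and Pim1 are established STAT targets. The letters searched on both strands were TTCNNNGAA, the palindrome that STAT dimers bind, its narrower form TTCCNGGAA, and GAAA repeated after any 2 bases, the form bound by interferon regulatory factors. Windows were given for Cish, Socs1, Socs3, Socs4, Pim1 (2 windows) and Pim2. Socs2, Socs5, Socs6 and Socs7 were not among the windows used here. The stretches that hold a match are shown 5′ to 3′ on the strand of the gene, with the matches in capitals.
Cish, chr9:107296656-107296685 (+), -3 to 27 from the start: gttTTCCTGGAAagTTCTTGGAAatctgtc
Socs1, chr16:10785582-10785641 (-), -105 to -46: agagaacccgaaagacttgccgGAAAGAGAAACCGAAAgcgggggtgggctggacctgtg
Socs3, chr11:117969487-117969546 (-), -180 to -121: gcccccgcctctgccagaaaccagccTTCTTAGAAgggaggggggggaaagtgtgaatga

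The Cish stretch holds 2 copies of TTCNNNGAA, the first of which is also TTCCNGGAA. It lies in the first exon of a protein-coding Cish transcript of GENCODE M21 that starts further upstream. Among all 32851 windows, 8.3% hold TTCNNNGAA at least once, 0.457% hold it 2 or more times and 1.15% hold TTCCNGGAA. The Socs1 stretch holds 2 overlapping copies of the spaced GAAA repeat, which 3.44% of windows hold at least once and 0.225% hold 2 or more times. The Socs3 stretch holds 1 copy of TTCNNNGAA, inside an intron of a noncoding Socs3 transcript. The windows of Socs4, Pim1 and Pim2 hold none of the 3 motifs, which says only that these letters are not in these windows.

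On the deposited scale Pim2, Socs2, Socs1, Socs4 and Pim1 were higher and Socs5, Socs6 and Socs3 lower in the cisplatin libraries. After centring on T-cell identity genes only Pim2 of the 5 remained higher, and Socs1, Socs2, Socs4 and Pim1 had estimates below 0. The libraries held markers of several cell types, so these changes cannot be assigned to T cells alone. Socs7 and Cish did not pass the test on the deposited scale, though both passed as lower after centring. On the deposited scale 8 of 10 genes thus passed an adjusted p of 0.05 in limma (Benjamini-Hochberg over all tested genes), beside 56.5% of all tested genes. The 5 higher genes are to be read against 27.5% and the 3 lower genes against 29.0% of tested genes. The 3 libraries of one group all lay above the 3 of the other for 9 of the 10 genes, and this was so for 64.2% of all tested genes. Of these 9, 6 lay higher in cisplatin (31.9% of tested genes) and 3 lower (32.3%). No member reached a 2-fold change with an adjusted p under 0.05, in limma on FPKM or in limma voom on rebuilt reads, which 16.9% of tested genes did in the FPKM fit (4.11% higher and 12.8% lower). At an unadjusted p under 0.05, 9 of the 10 passed, beside 61.1% of tested genes.

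**Figure D1:**
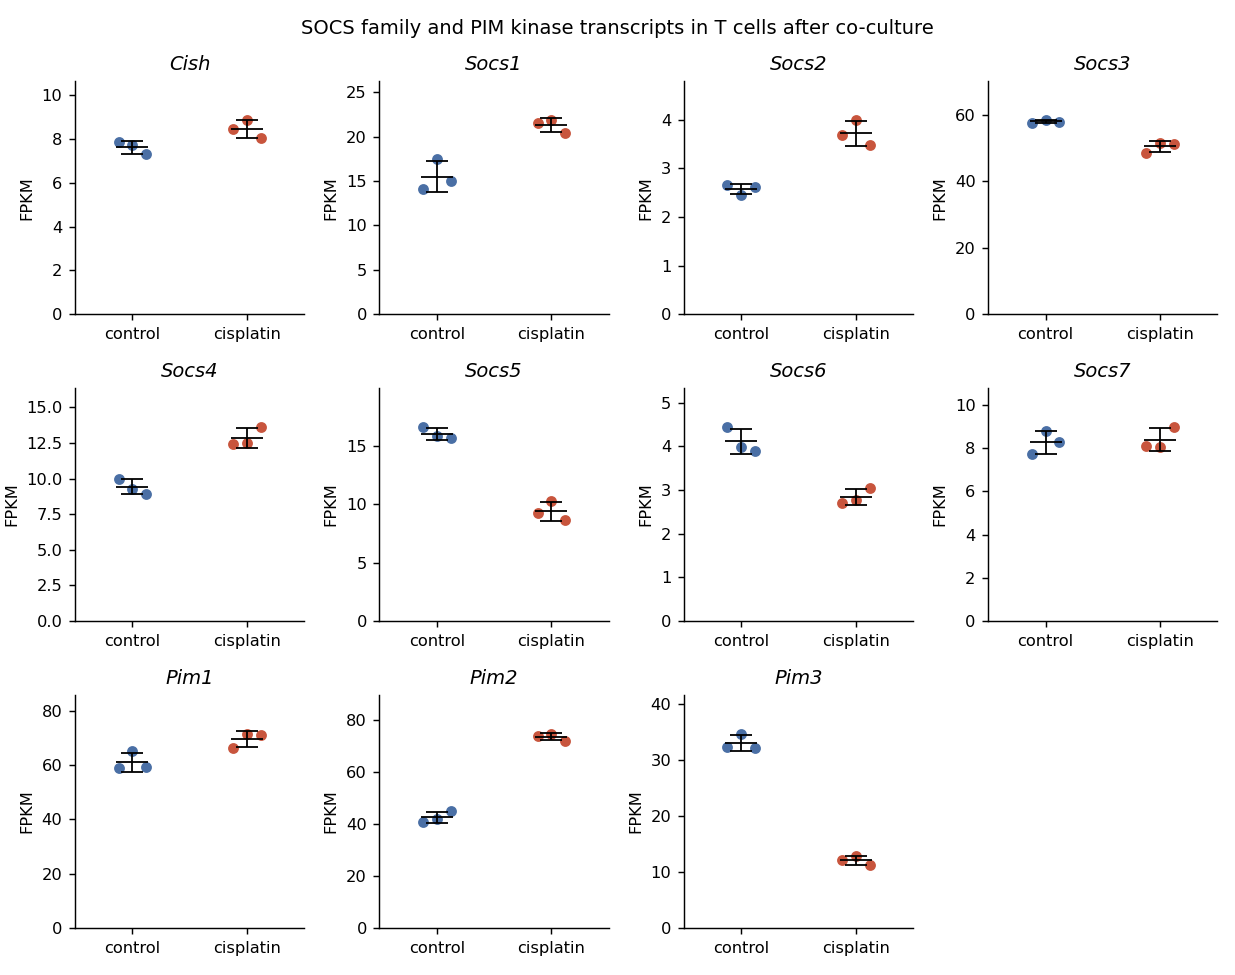
FPKM of each gene in the 3 control (blue) and 3 cisplatin (red) libraries, one panel a gene, with the group mean and SD in black and each vertical axis starting at 0. Pim2 lies at 40.7 to 44.9 FPKM in control and 71.9 to 74.7 in cisplatin, Socs5 runs the other way, and the Socs7 groups overlap.

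Cish encodes CIS, which binds activated IL-2 receptors and dampens signalling through STAT5. The gene lies on chr9:107296026-107302784 (+; GRCm38, ENSMUSG00000032578). Its level was 7.86, 7.69 and 7.30 FPKM in control 1 to 3 and 8.47, 8.86 and 8.04 FPKM in cisplatin 1 to 3. Every cisplatin library was above every control library, by little. The means were 7.62 ± 0.291 and 8.46 ± 0.410 FPKM (SD, n = 3 each), from 1437 to 1885 reads per library. The log2 fold change of 0.15 (SE 0.057, 95% interval 0.01 to 0.28) did not pass in limma (adjusted p = 0.063) and became -0.39 after centring (adjusted p = 0.0015). Without cisplatin 3 the same limma test gave 0.18 (adjusted p = 0.048). Cish did not pass when any other library was left out, with limma adjusted p from 0.075 (without control 1) to 0.18 (without cisplatin 2).

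Socs2 is the closest relative of Cish and is best known as the brake on growth hormone signalling. The gene lies on chr10:95385362-95417180 (-; ENSMUSG00000020027). Its level was 2.66, 2.46 and 2.62 FPKM in control and 3.69, 3.999 and 3.48 FPKM in cisplatin. The groups did not overlap. The means were 2.58 ± 0.108 and 3.72 ± 0.261 FPKM (SD, n = 3 each). Socs2 thus had a log2 fold change of 0.51 (SE 0.085, adjusted p = 0.0021 in limma), which became -0.02 after centring (adjusted p = 0.84).

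Socs1 blocks JAK kinases directly through a kinase inhibitory region and is the main brake on interferon-γ signalling. It lies on chr16:10782240-10785536 (-; ENSMUSG00000038037), just downstream of the interferon-type repeat shown above. Its level was 14.1, 17.5 and 14.9 FPKM in control and 21.5, 21.9 and 20.4 FPKM in cisplatin. Control 2 was the highest control library and still lay below all cisplatin libraries. From means of 15.5 ± 1.76 and 21.3 ± 0.795 FPKM (SD, n = 3 each), the log2 fold change was 0.46 (SE 0.082, adjusted p = 0.0030 in limma) and it became -0.08 after centring (adjusted p = 0.43).

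Socs3, the other member with a kinase inhibitory region, attaches to gp130, the shared receptor chain of the IL-6 family. It lies on chr11:117966079-117970047 (-; ENSMUSG00000053113). It was the most abundant SOCS transcript, at 57.7, 58.5 and 57.9 FPKM in control and 48.5, 51.6 and 51.4 FPKM in cisplatin. All cisplatin libraries were below the closely grouped controls. The means were 58.0 ± 0.417 and 50.5 ± 1.71 FPKM (SD, n = 3 each). Socs3 fell by 0.20 on the log2 scale (SE 0.033, adjusted p = 0.0022 in limma). The size of this change depended on the scaling, as it was -0.74 after centring (adjusted p = 1.6e-06) and -0.12 in limma voom on rebuilt reads.

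Socs4 and Socs5 form a pair with long amino-terminal regions, best known for acting on the epidermal growth factor receptor. Socs4 (chr14:47276931-47296102, +; ENSMUSG00000048379) was at 9.997, 9.30 and 8.95 FPKM in control and 12.4, 12.5 and 13.6 FPKM in cisplatin, with no overlap. The log2 fold change was 0.44 (SE 0.061, adjusted p = 0.00088 in limma) and -0.09 after centring (adjusted p = 0.28). Socs5 (chr17:87107679-87137583, +; ENSMUSG00000037104) was at 16.6, 15.8 and 15.6 FPKM in control and 9.20, 10.3 and 8.64 FPKM in cisplatin. Its highest cisplatin library was well below its lowest control. Socs5 fell by 0.77 on the log2 scale (SE 0.069, adjusted p = 0.00011 in limma), more in absolute size than 74.0% of tested genes, and the estimate was -1.304 after centring.

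Socs6 and Socs7 form the last pair of the family. Socs6 binds receptor tyrosine kinases such as KIT, and Socs7 binds the adaptor NCK. Socs6 (chr18:88665224-88927481, -; ENSMUSG00000056153) was at 4.45, 3.99 and 3.90 FPKM in control and 2.70, 2.76 and 3.05 FPKM in cisplatin, with all cisplatin libraries lower. It fell by 0.52 on the log2 scale (SE 0.088, adjusted p = 0.0023 in limma), and the estimate was -1.05 after centring and -0.32 after quantile normalization. Socs7 (chr11:97362551-97398542, +; ENSMUSG00000038485) was at 7.73, 8.80 and 8.29 FPKM in control and 8.09, 8.07 and 8.995 FPKM in cisplatin. These groups overlapped. Its log2 fold change was 0.02 (95% interval -0.15 to 0.19, adjusted p = 0.83 in limma), and -0.52 after centring (adjusted p = 0.00037 in limma). The estimate was also below 0, by little, on the TPM scale (-0.00079), without cisplatin 3 (-0.0319) and without control 1 (-0.028).

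Pim1 (chr17:29490812-29496111, +; ENSMUSG00000024014) is a classical STAT5 and STAT3 target. Its level was 58.9, 65.0 and 59.2 FPKM in control and 66.1, 71.6 and 71.0 FPKM in cisplatin. Control 2 came close to cisplatin 1 but did not pass it. The means were 61.0 ± 3.45 and 69.6 ± 2.99 FPKM (SD, n = 3 each). Pim1 thus had a log2 fold change of 0.19 (SE 0.052, adjusted p = 0.019 in limma), which became -0.35 after centring (adjusted p = 0.00056). Whether Pim1 passed depended on which library was left out. The limma adjusted p was 0.064 without cisplatin 2, 0.061 without cisplatin 3, 0.060 without control 1 and 0.061 without control 3. It was 0.016 without cisplatin 1 and 0.0079 without control 2.

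Pim2 (chrX:7878262-7883432, +; ENSMUSG00000031155) makes the kinase best known for keeping lymphocytes alive alongside the TOR pathway. It was at 40.7, 42.0 and 44.9 FPKM in control and 73.7, 74.7 and 71.9 FPKM in cisplatin. The gap between the groups was many times the spread within either. From means of 42.5 ± 2.18 and 73.4 ± 1.40 FPKM (SD, n = 3 each), based on 3414 to 6921 reads per library, the log2 fold change was 0.79 (SE 0.043, 95% interval 0.69 to 0.89, adjusted p = 9.7e-06 in limma). This change was above that of 74.5% of tested genes in absolute size and close to that of Socs5. Pim2 stayed higher after centring, at 0.25 (adjusted p = 0.00082 in limma). The centred list medians were 0.17 for B-cell, 0.44 for myeloid and -0.14 for NK-cell genes. The part of these cells in the Pim2 change was not tested.

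Pim3, the remaining kinase of the family and not one of the 10, was at 32.2, 34.7 and 32.1 FPKM in control and 12.03, 12.8 and 11.3 FPKM in cisplatin. It fell by 1.45 on the log2 scale (SE 0.059, adjusted p = 2.6e-06 in limma) and the estimate was -1.98 after centring, so Pim2 and Pim3 went opposite ways on both scales.

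**Figure D2:**
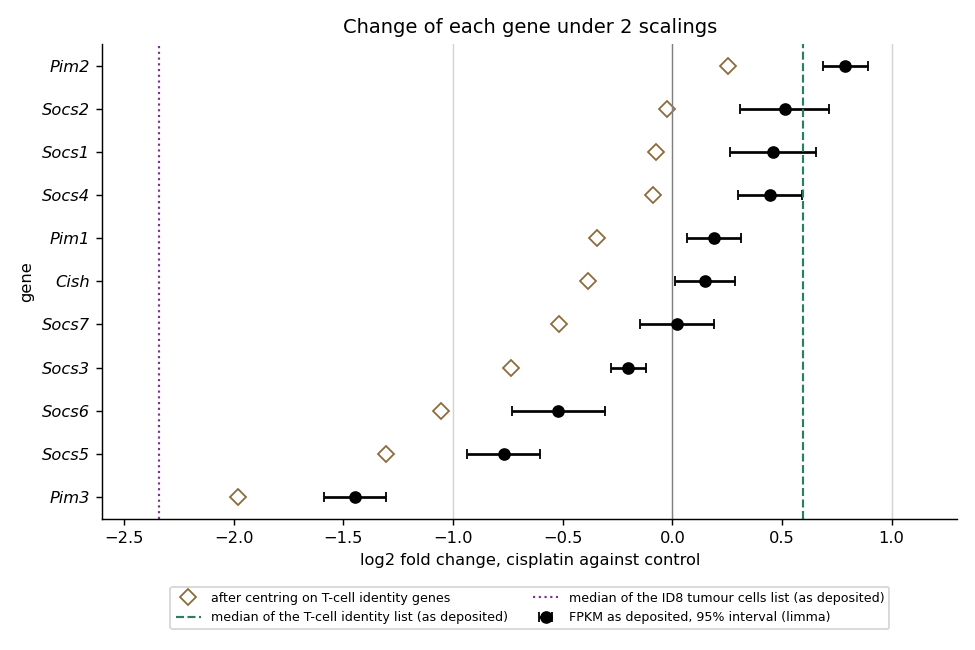
Log2 fold change of each gene, cisplatin against control, on FPKM as deposited (black points, 95% limma interval) and after centring on T-cell identity genes (open diamonds), with the median of the T-cell identity list (dashed, 0.60) and of the ID8 list (dotted, -2.34). Pim2 stays above 0 on both scales, Socs3, Socs5, Socs6 and Pim3 stay below 0, and the other 6 genes have centred estimates below 0.

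Ratios between paralogues within a library do not depend on how libraries are scaled to each other. All 5 pairs fixed for this differed between the groups without overlap. For single genes this was so in 64.2% of all tested genes, and other gene pairs were not examined. Each of the 5 gave p = 0.1 in a two-sided exact permutation test. This is the smallest that 3 against 3 can give, so none can reach 0.05. The part of cell makeup in these ratios was not tested. The Socs4 to Socs5 log2 ratio turned over, from -0.76 ± 0.035 in control to 0.45 ± 0.189 in cisplatin (SD, n = 3 each), so Socs4 went from 0.588 to 1.38 times the level of Socs5. The Pim1 to Pim2 log2 ratio went from 0.52 ± 0.117 to -0.08 ± 0.070, that is from 1.44 to 0.947 times. The Socs1 to Socs3 log2 ratio was -1.90 ± 0.149 in control and -1.24 ± 0.082 in cisplatin, with Socs3 the more abundant in every library. For Cish to Socs2 the log2 ratio went from 1.53 ± 0.082 to 1.16 ± 0.031, and for Socs6 to Socs7 from -0.99 ± 0.181 to -1.53 ± 0.018. How far one paralogue lies from the other depends on the gene lengths used, but the difference between the groups does not.

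**Figure D3:**
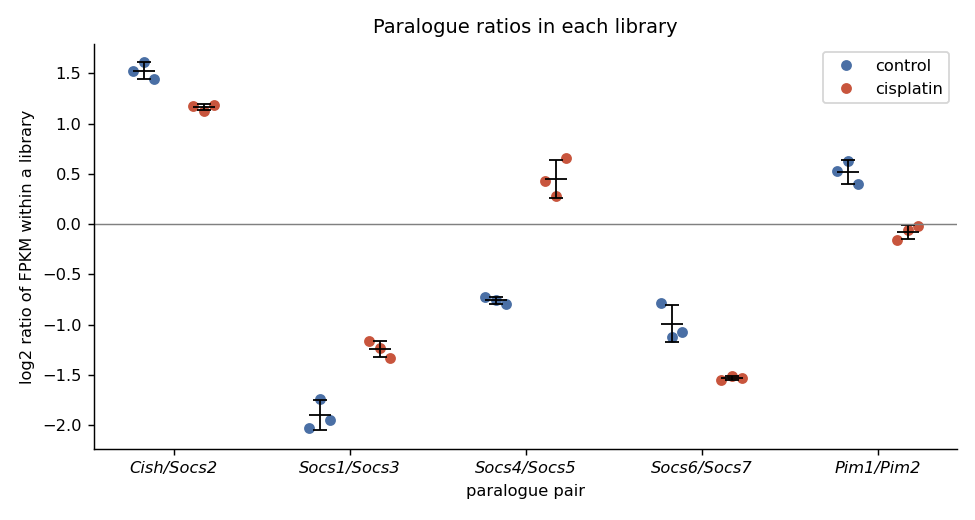
Log2 ratio of the FPKM of 2 paralogues within each library for 5 pairs, control in blue and cisplatin in red, with the group mean and SD in black. The groups do not overlap in any pair, and the Socs4/Socs5 ratio lies below 0 in all control and above 0 in all cisplatin libraries.

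The same was seen in the makeup of each family, a description added after the values were known. The 8 SOCS genes summed to 122 ± 2.27 FPKM in control and 117 ± 2.64 FPKM in cisplatin (SD, n = 3 each). Within this sum Socs3 went from 47.8% ± 0.652 to 43.0% ± 0.680, Socs5 from 13.2% ± 0.502 to 7.98% ± 0.610 and Socs1 from 12.7% ± 1.25 to 18.1% ± 0.744. Socs4 went from 7.75% ± 0.440 to 10.9% ± 0.610. The 3 PIM genes summed to 137 ± 4.93 FPKM in control and 155 ± 3.73 FPKM in cisplatin. Pim1 kept a similar share, 44.7% ± 1.23 and 44.9% ± 1.25, with overlapping groups, whereas Pim2 went from 31.2% ± 1.70 to 47.4% ± 1.005 and Pim3 from 24.2% ± 0.515 to 7.77% ± 0.402. Of the 11 shares, 9 did not overlap between the groups (exact permutation p = 0.1 each, 0.12 after Benjamini-Hochberg adjustment over the 11). The levels of single genes did not overlap for 64.2% of all tested genes, and shares in other families were not examined. Shares of a sum are not independent of each other, and the part of cell makeup in them was not tested.

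**Figure D4:**
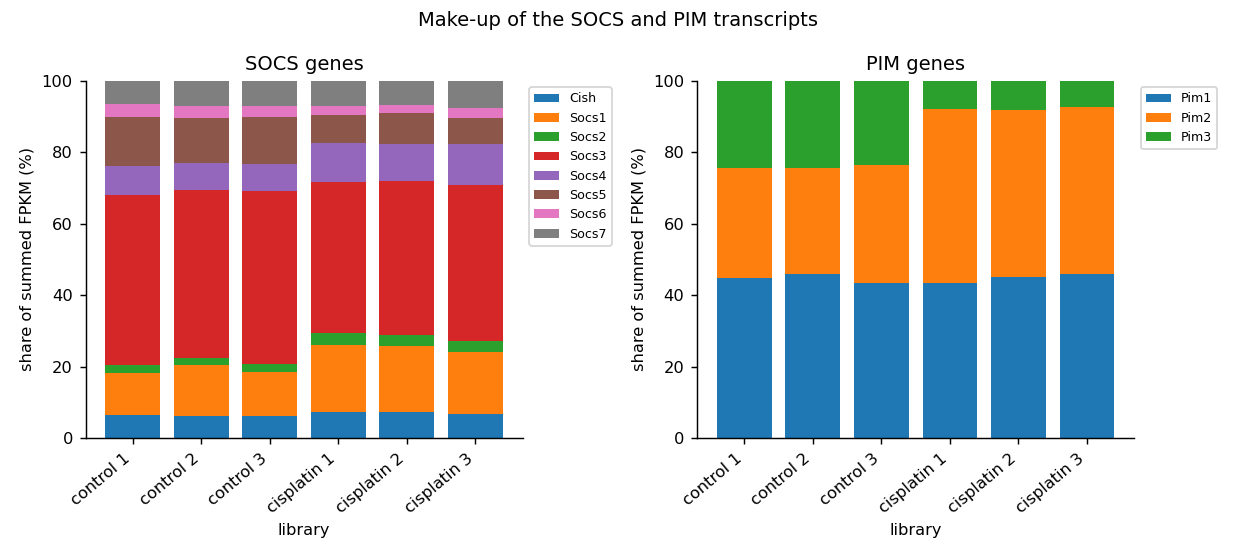
Share of each gene in the summed FPKM of the 8 SOCS genes (left) and the 3 PIM genes (right), as stacked bars for each of the 6 libraries that reach 100%. Socs3 is the largest SOCS share in all libraries, and the Pim3 share is 23.6% to 24.5% in control and 7.31% to 8.07% in cisplatin.

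By FPKM, the order of the levels in control was Pim1, Socs3, Pim2, Socs5, Socs1, Socs4, Socs7, Cish, Socs6 and Socs2. Neighbours whose ranges overlapped were Socs5 and Socs1, and Socs7 and Cish. In cisplatin the order was Pim2, Pim1, Socs3, Socs1, Socs4, Socs5, Cish, Socs7, Socs2 and Socs6, where Socs5, Cish and Socs7 overlapped with their neighbours. The order depends on the gene length used. The deposited table gives Cish 6419 bases and Socs2 9531 bases, whereas their longest coding transcripts in GENCODE M21 have 2850 and 2222 bases. Divided by the latter, Socs3 led in control at 65.8, Cish came to 17.2 beside 11.1 for Socs2, and 8 genes in control and 5 in cisplatin changed place.

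The pathway around these genes was described from 9 lists with 122 different genes, some of them shared between lists. Of these, 107 could be tested, and 44 were higher and 35 lower at an adjusted p of 0.05 in limma. Among all tested genes 27.5% were higher and 29.0% lower by the same rule. The counts for each list below are to be read against these shares. The 107 pathway genes had a median log2 fold change of 0.06, beside 0.03 for all tested genes and 0.17 for the 10 SOCS and PIM genes. After centring these medians were -0.47, -0.51 and -0.37.

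Upstream, 8 of 21 cytokine ligand genes could be tested, of which 3 were higher and 1 lower. Osm, encoding the IL-6 family cytokine oncostatin M, went from 4.12 ± 0.414 to 7.77 ± 0.710 FPKM (SD, n = 3 each) and Lif, of the same family, from 10.8 ± 0.795 to 3.79 ± 0.617 FPKM, with log2 fold changes of 0.90 and -1.49 that were 0.37 and -2.03 after centring. Csf2, named after its values were seen, was the ligand higher by at least 2-fold, from a mean of 0.592 to 1.40 FPKM, and this 2-fold change was not kept after centring (log2 fold change 1.15, then 0.62). Il2 itself had a mean of 0.0859 FPKM in control and 0.286 in cisplatin and was not tested. The T cells of both groups had been kept in IL-2 medium, and the medium used during co-culture is not given in the sources used here. Among receptor genes 16 were higher and 5 lower of 25 tested. The IL-2 receptor chains Il2ra, Il2rb and Il2rg passed as higher, with log2 fold changes of 0.61, 0.17 and 0.74, which became 0.08, -0.36 and 0.21 after centring. Ifngr1, for interferon-γ, went from 80.9 to 144 FPKM and Csf2rb, the common β chain, from 6.49 to 13.4 FPKM, with log2 fold changes of 0.84 and 1.03 that were 0.30 and 0.50 after centring, so that Csf2rb was no longer 2-fold higher. Il6st, encoding the gp130 chain to which Socs3 binds, fell by 0.42 on the log2 scale (-0.95 after centring). Il13ra1 and Osmr fell by 2.58 and 2.54 (-3.12 and -3.07 after centring), beside a median of -2.34 for the ID8 list, whose part in this was not tested.

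Of the 11 JAK and STAT genes 6 were higher and 3 lower. Stat5a, the factor downstream of IL-2, went from 12.2 ± 0.658 to 18.8 ± 0.315 FPKM (log2 fold change 0.61, 0.08 after centring), and Stat5b, Tyk2 and Jak2 had log2 fold changes of 0.30, 0.40 and 0.17 that turned to -0.24, -0.13 and -0.37 after centring. Stat2, Jak3 and Stat3 fell by 0.30, 0.22 and 0.14, and their estimates were -0.83, -0.75 and -0.67 after centring. Jak1 did not pass (log2 fold change -0.04, adjusted p = 0.20 in limma), with -0.58 after centring. Among 13 other brakes on the pathway 7 were higher and 3 lower. Ptpn6, the phosphatase SHP-1 of blood cells, went from 43.8 ± 0.290 to 89.9 ± 2.67 FPKM and was the gene of that list higher by at least 2-fold, a size not kept after centring (log2 fold change 1.04, then 0.50). Ptprc, the phosphatase CD45, had a log2 fold change of 0.53 (-0.01 after centring), while Usp18 and Pias1 fell by 0.40 and 0.23 (-0.93 and -0.77 after centring).

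Of the 7 genes of the ligase machinery that SOCS boxes recruit, 3 passed, all as lower. Eloc fell by 0.51, Rnf7 by 0.26 and Elob by 0.19 on the log2 scale, with -1.04, -0.79 and -0.73 after centring. The cullin gene Cul5 did not pass (log2 fold change -0.02, adjusted p = 0.81 in limma), with -0.56 after centring. In the list of Pim3 and PIM substrates 2 were higher and 4 lower of 10. Cdkn1a, the cell cycle inhibitor p21, fell by 0.48 (-1.02 after centring), and Myc had a log2 fold change of 0.17 that turned to -0.36 after centring.

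Other lists held genes that STATs are known to induce. Of 11 IL-2 and STAT5 induced genes 6 were higher and 2 lower, with a median log2 fold change of 0.17 (-0.36 after centring). Foxp3, the regulatory T-cell factor, went from 2.64 ± 0.235 to 6.62 ± 0.147 FPKM, a log2 fold change of 1.296 that remained 0.76 after centring, while Bcl2l1 and Ccnd2 fell by 0.49 and 0.29 (-1.02 and -0.83 after centring). Of 11 tested STAT3 induced genes 2 were higher and 8 lower, with a median of -1.43 (-1.96 after centring). Vegfa went from 101 ± 3.14 to 10.1 ± 0.461 FPKM and Cebpd from 12.9 ± 0.724 to 1.53 ± 0.335 FPKM, and the higher ones were Hif1a and Il4ra at log2 fold changes of 0.41 and 0.15, which turned to -0.13 and -0.38 after centring. The ID8 markers fell in the same libraries, and their part in the STAT3 list was not tested.

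**Figure D5:**
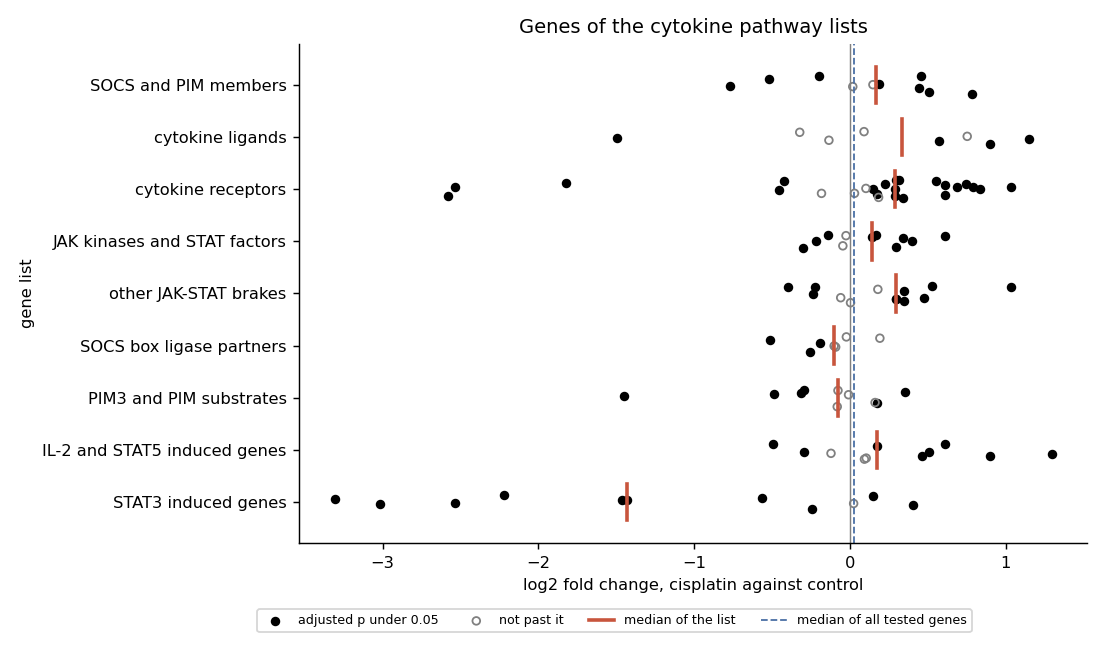
Log2 fold change of each tested gene, cisplatin against control on FPKM as deposited, in the 10 SOCS and PIM genes and 8 of the 9 pathway lists, with filled points past an adjusted p of 0.05 in limma, red bars for list medians and a dashed line for the median of all tested genes (0.03). The SOCS and PIM genes all lie between -0.77 and 0.79, while the STAT3 list reaches -3.31.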

How the data were processed

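RNA of 6 T-cell libraries was compared, 3 cisplatin and 3 control, grouped by the treatment in the sample labels. The authors deposited FPKM values per gene. The submitters' processing notes name fastp, HISAT2 2.0.5, featureCounts 1.5.0-p3 and mm10, whereas the study's methods name LifeScope for alignment, and this difference was not resolved. Strand use and the handling of multimapping reads are not given in the sources used here, so antisense or overlapping transcripts (Gm17040 and Gm17041 at Cish, Gm26885 at Pim1) could share reads. Gene coordinates equalled those of GENCODE M21 (GRCm38) for 53499 of 54409 genes. No further sample columns were in the table.

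Whole reads were rebuilt from FPKM and gene length (100% of values within 0.1 of a whole read) and cover counting error only. log2(FPKM + 0.1) was fitted with limma 3.58.1 (R 4.3.3; lmFit, eBayes with trend) over the 15874 genes averaging 0.5 FPKM or more, with Benjamini-Hochberg adjustment over all of them. Fold changes are on the log2(FPKM + 0.1) scale, which understates changes of low genes. A gene passed at an adjusted p under 0.05, and was called 2-fold where its log2 fold change was also 1 or more in size. Ratios and shares were tested with exact permutation tests (scipy 1.17.1). Tested on simulated data with 200 changed genes for this comparison, the fit recovered 196 (98%) and called 9 unchanged genes among 15859. The planted changes were all larger than 2-fold, and recovery was scored at the 2-fold call. No change of cell makeup was simulated. The simulation thus cannot say how well smaller changes, such as those of the SOCS genes, Pim1 and Pim2, are recovered. Replicate libraries differed by more than counting noise, and no 2 libraries of the same group held the same values.

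The genes, the pathway and marker lists and the tests were chosen with earlier results of these data known. Named genes were the 10 members, fixed pathway genes (Pim3, Il2ra, Il2rb, Il2rg, Il6st, Ifngr1, the main JAK, STAT and ligase genes) and, from each pathway list, the 2 largest rises and falls past an adjusted p of 0.05 with at least 5 FPKM. Alternatives were other pseudocounts (1 and 0.01), filters, scalings, a variance prior without trend, limma voom on rebuilt reads, protein-coding genes alone, a replicate block and leaving out each library. Promoter windows came from RefSeq (GRCm38.p6), with 7 windows for 6 of the 10 genes. Results of some pathway genes, and of 1 of the 9 lists, are left out here.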

Additional observations from a re-analysis of the deposited data

How the results depend on the processing

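Centring on the T-cell identity genes changed the most. It left 1 SOCS or PIM gene higher (Pim2) and 6 lower, with 2 of them at least 2-fold lower (Socs5 and Socs6). It left 7 pathway genes higher and 85 lower. These counts are to be read against all 15874 tested genes. After centring 10954 of those passed in either direction, and 3670 passed with a change of at least 2-fold. Log2 fold changes turned to -0.39 for Cish, -0.0764 for Socs1, -0.0226 for Socs2, -0.0905 for Socs4, -0.52 for Socs7 and -0.35 for Pim1. The Socs7 estimate was also below 0 on TPM (-0.00079), without cisplatin 3 and without control 1, and ranged from -0.0319 to 0.0641 when each library was left out. The difference in the Cish to Socs2 log2 ratio was -0.36, and -0.27 with a pseudocount of 1. Per length of the longest coding transcript, chosen after the data were seen, 8 genes in control and 5 in cisplatin changed place in the order of levels, because the gene lengths differ.

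Cish passed as higher in limma after quantile normalization (adjusted p = 0.0048) and after rescaling by rebuilt reads (0.011). It also passed in limma voom (0.0020) and in limma among protein-coding genes (0.050, just under the threshold). In limma Cish did not pass on TPM (adjusted p = 0.11) or with a minimum of 5 FPKM (0.054). Nor did it pass when any library but cisplatin 3 was left out. Pim1 did not pass without the variance trend (adjusted p = 0.051 in limma). A minimum of 5 FPKM leaves out Socs2 and Socs6.

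Libraries with the same number did not deviate together (correlations 0.02, -0.06 and -0.02), so no shared effect of the number was seen. This cannot tell whether such libraries came from the same mice or culture. With the replicate number as a block, 5 SOCS and PIM genes were higher and 3 lower, with no call changed among the 10, and 8564 genes passed in all.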
